A study of Oryctolagus cuniculus with 12 samples.

Results

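The expression of genes that make, break down, and sense prostaglandins was followed in rabbit conjunctiva after trabeculectomy (TL), a glaucoma operation that opens a drainage path for aqueous humor into a bleb beneath the conjunctiva. The genes were chosen by 10 names: PTGS1, PTGS2, PTGES, PTGIS, and HPGD of synthesis and degradation, and PTGER2, PTGER3, PTGER4, PTGFR, and PTGIR of the receptors. Of these names, 9 had a row in the table of 20566 genes, and PTGIS had none. The 12 libraries came from female Japanese white rabbits. The TL-3h, TL-3d, and TL-14d groups each held 3 libraries of bleb conjunctiva from right eyes taken at 3 hours, at 3 days, or at 14 days from TL with mitomycin C, a drug that crosslinks DNA and limits scarring. The control (cont) group held 3 libraries of conjunctiva from left eyes. A later paper reused these libraries as data analyzed before. By its methods, eyes operated by TL also received a conjunctival injection of betamethasone, a glucocorticoid, and an antibiotic ointment. It does not state separately that the animals of these libraries were treated in this way. If they were, the surgery and the drugs cannot be told apart in these groups. The labels give no age for these animals, and they tie no control eye to an operated eye or a time point. P-values therefore measure the spread between these eyes only, and all comparisons with control share the same 3 control libraries.

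Prostaglandins are short-lived lipids made from arachidonic acid, which cytosolic phospholipase A2 releases from membranes. A cyclooxygenase turns it into a common precursor, from which terminal synthases make prostaglandin E, F, D, prostacyclin, or thromboxane. Each product acts on its own G protein-coupled receptors, and a dehydrogenase inactivates some of them, such as prostaglandin E. In the conjunctiva prostaglandins are known as mediators of redness, swelling, and pain after injury, and glucocorticoids are known to hold down the inducible cyclooxygenase.

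The genes lie on several chromosomes of the rabbit genome OryCun2.0. PTGS2 (gene ID 100009248) lies on chromosome 16 from 83706596 to 83713368 on the plus strand, and PLA2G4A, the gene of cytosolic phospholipase A2, ends 124280 bases before it on the opposite strand. HPGD (gene ID 100348968) lies on chromosome 2 from 52453005 to 52494903. Among the receptors, PTGER2 (gene ID 100009369) lies on chromosome 17 from 71193295 to 71210642, where it is 23803 bases from PTGDR, a receptor gene of prostaglandin D. PTGER3 (gene ID 100009389) spans 94996486 to 95185179 on chromosome 13, which also holds PTGFR (gene ID 100344670, 86862035 to 86904435), and PTGER4 (gene ID 100009081) spans 61556448 to 61569098 on chromosome 11. PTGS1 (gene ID 100009407, 4844436 to 4866579), PTGES (gene ID 100342171, 363492225 to 363501702), and PTGIR (gene ID 100355165, 307352018 to 307356619) lie on unplaced sequence, with positions on a joined sequence of such pieces.

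Levels are CPM, the counts per 1000000 counts of the library size after TMM adjustment, and levels of different genes are set side by side only as FPKM, which divides by transcript length. The libraries held 27111276 to 38591374 counts, and the upper limit that a count of 0 allows, set at 3 counts, equals 0.0712 to 0.124 CPM. This limit covers counting error only. The tests are those of edgeR's quasi-likelihood model, run on 14835 genes. SE is the standard error of a log2 fold change, q is the p-value after Benjamini-Hochberg adjustment, and the threshold was a q of 0.05. With 3 libraries in each group, a two-sided exact permutation p is at least 0.1, so none is given. The TMM scaling raised the median over all genes of the log2 fold change at 3 hours from -0.47 with library size only to 0.02, and the changes are given relative to that scaling. In these bulk samples, fewer cells of a type and less RNA per cell cannot be told apart. TL-14d replicate 1 had a higher correlation across genes with the control libraries (0.962) than with its own group (0.898).

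The labelled tissue was checked by markers. The 4 epithelial markers with a row (KRT4, KRT5, EPCAM, and CDH1) summed to 3710.1 to 7913 CPM in control, 3901 to 6368 CPM at 3 hours, 5962 to 15901 CPM at 3 days, and 8074 to 12346 CPM at 14 days, where all libraries were above control, while KRT13, KRT19, and the goblet cell markers MUC5AC and TFF1 had no row. The 2 other goblet cell markers summed to 43.9 to 678 CPM. Neutrophil markers summed to 3.49 to 82.4 CPM in control, 1049 to 2792 CPM at 3 hours, 126 to 739 CPM at 3 days, and 3.33 to 114 CPM at 14 days. Monocyte and macrophage markers were at 68.1 to 602 CPM in control, 636 to 973 CPM at 3 hours, 1245 to 2003 CPM at 3 days, and 89.3 to 408 CPM at 14 days. Endothelial markers went from 63.7 to 275 CPM in control to 606 to 1211 CPM at 3 hours and 294 to 548 CPM at 3 days. The sum of the mast cell markers was 99.5 to 215 CPM in control, 15.1 to 43.4 CPM at 3 hours, and 27.6 to 43.2 CPM at 3 days. Smooth muscle and pericyte markers summed to 237 to 345 CPM in control, 141 to 160.2 CPM at 3 hours, below control, and 391 to 419 CPM at 3 days, above it. Pigment cell markers were at 3.4 to 8.92 CPM in control, 9.0 to 28.3 CPM at 3 hours, and 6.37 to 10.1 CPM at 3 days, and at 14 days they were at 74.3 CPM in replicate 2 and at 4.24 and 4.98 CPM in replicates 1 and 3. Platelet markers (2.87 to 9.42 CPM) and T cell markers (4.43 to 14.2 CPM) were low in all libraries, and skeletal muscle markers reached 154 CPM in control replicate 2 and 116 CPM in TL-3d replicate 3.

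In control conjunctiva, PTGES and PTGS1 were the most abundant of the genes per length, with median levels of 83.0 and 54.6 FPKM whose ranges overlapped. PTGER4 followed at 13.3 FPKM without overlap with either neighbour. PTGFR (1.54 FPKM), HPGD (0.738 FPKM), PTGS2 (0.55 FPKM), PTGER3 (0.375 FPKM), and PTGIR (0.342 FPKM) formed a group in which each range overlapped the next, and PTGER2 was lowest at 0.0552 FPKM. The order differed at 3 hours. PTGS2 was then first, at a median of 73.4 FPKM and with no overlap with PTGS1 (48.1 FPKM), and PTGFR (5.76 FPKM) and PTGIR (5.58 FPKM) stood next to each other with overlapping ranges below PTGER4 (10.3 FPKM). At 3 days, PTGS1 (40.7 FPKM) and PTGES (33.9 FPKM) were again on top with overlapping ranges, and PTGS2 followed PTGER4 (14.0 FPKM) at 9.63 FPKM, apart from both neighbours. At 14 days, PTGES (45.4 FPKM), PTGS1 (23.5 FPKM), PTGER4 (14.1 FPKM), and PTGS2 (2.49 FPKM) led, and PTGS2 overlapped PTGFR (1.04 FPKM).

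**Figure D1:**
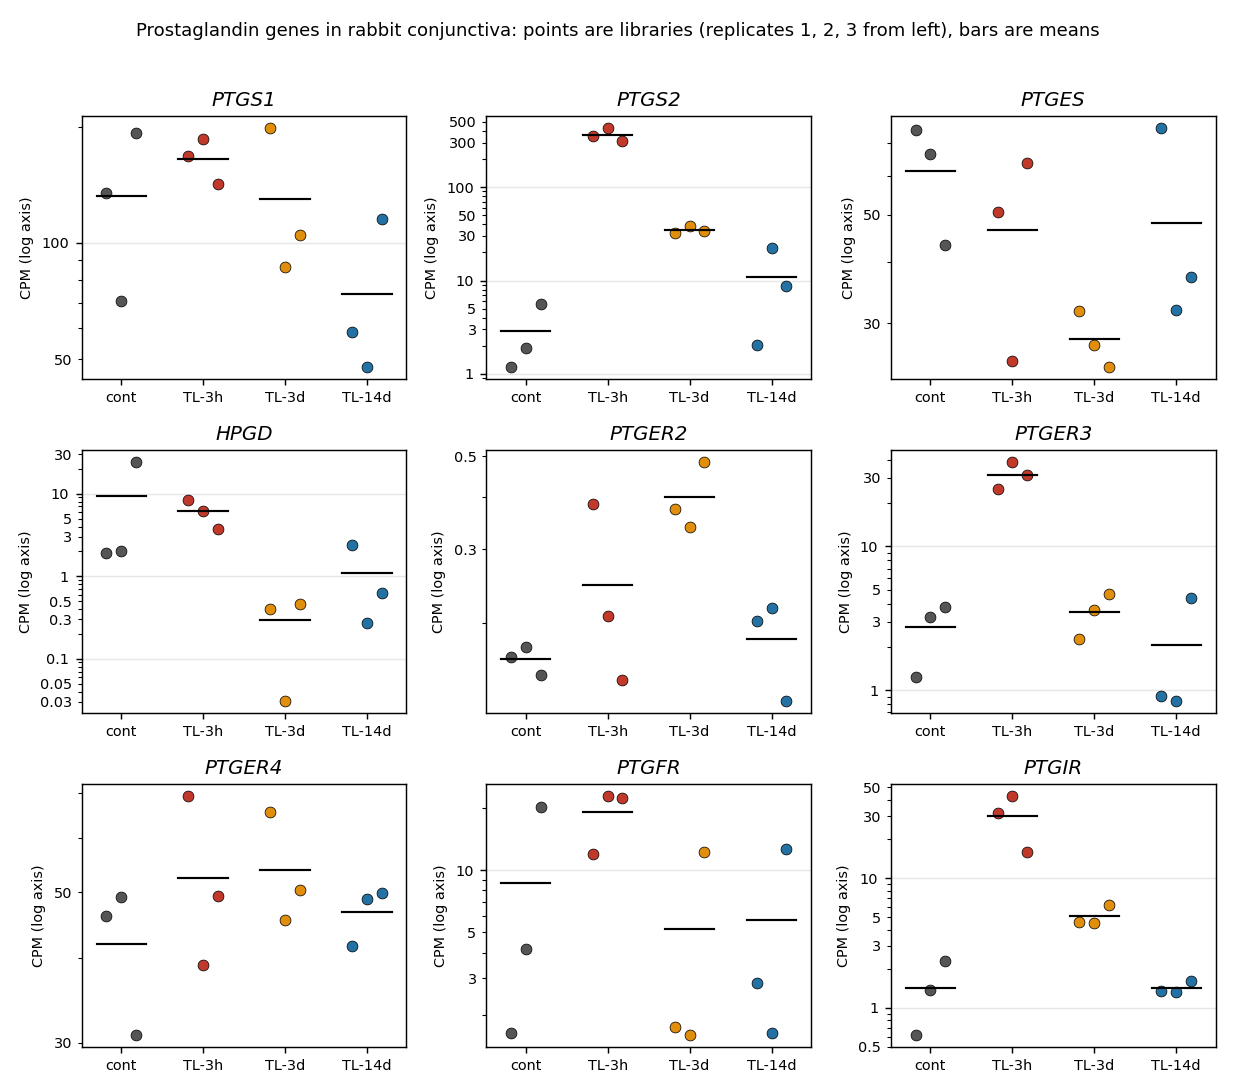
Level of each of the 9 genes in each library, in CPM on log axes that differ between panels; points are the 3 libraries of a group and bars are their means. PTGS2, PTGER3, and PTGIR at 3 hours lie above all control libraries, and HPGD at 3 days lies below them.

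PTGS2, the inducible cyclooxygenase, rose 125-fold at 3 hours and was still 12-fold higher at 3 days. It was at 1.19, 1.88, and 5.67 CPM in control replicates 1, 2, and 3, and at 356, 426, and 313 CPM in the TL-3h libraries. The TL-3d libraries held 32.2, 38.5, and 34.3 CPM, and the TL-14d libraries 2.02, 22.4, and 8.72 CPM. All libraries at 3 hours and 3 days lay above all control libraries, and at 14 days replicate 1 lay inside the control range while the other 2 lay above it. The means were 2.91 ± 2.41, 365 ± 56.8, 35 ± 3.21, and 11 ± 10.4 CPM in the cont, TL-3h, TL-3d, and TL-14d groups (SD, n = 3 each). Compared to control, the log2 fold change was 6.97 at 3 hours (SE 0.926, q = 0.000281) and 3.59 at 3 days (SE 0.796, q = 0.0187). Among the 14835 genes, counted from the highest fitted increase, PTGS2 had rank 45 at 3 hours and rank 280 at 3 days. At 14 days the difference of 1.93 did not pass the test (SE 0.75, q = 0.431), and without TL-14d replicate 1 it was 2.42 with a q of 0.0516, the lowest of the q over its alternatives (0.0516 to 0.978). It was 0.89 without TL-14d replicate 2 and 2.84 without control replicate 3. From 3 hours to 3 days, PTGS2 fell by 3.38 on the log2 scale (SE 0.779, q = 0.00723). The call at 3 hours held under all 21 alternatives, with q between 5.49e-20 and 0.00251. At 3 days it was lost without control replicate 1 (q = 0.0678), control replicate 2 (q = 0.0719), TL-3d replicate 1 (q = 0.0557), or TL-3d replicate 2 (q = 0.0608), over a range of 2.06e-05 to 0.0719, with a log2 fold change of at least 2.66 in each alternative. Without control replicate 3, its highest control library, the log2 fold change was 7.84 at 3 hours and 4.5 at 3 days.

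PTGS1, the constitutive cyclooxygenase, had no difference that passed the test at any time point. Control replicates 1, 2, and 3 held 135, 70.7, and 192 CPM, the TL-3h libraries 168, 186, and 142 CPM, the TL-3d libraries 198, 86.5, and 105 CPM, and the TL-14d libraries 58.6, 47.7, and 115 CPM. The groups overlapped in all comparisons with control, and 2 of the 3 TL-14d libraries were below the control range. Log2 fold changes were 0.32 at 3 hours (SE 0.438, q = 0.588), -0.03 at 3 days (SE 0.438, q = 0.968), and -0.85 at 14 days (SE 0.441, q = 0.538). At 3 hours the sign depended on the scaling, with -0.16 for library size only. Of the PTGS1 count values, 75% were fractions, so its counts are estimates.

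The composition of the cyclooxygenase pair per length followed from these levels. PTGS2 made up 0.629%, 1.88%, and 2.09% of the summed PTGS1 and PTGS2 FPKM in control replicates 1, 2, and 3. At 3 hours its share was 60.4%, 62.2%, and 61.5%, and at 3 days 10.5%, 24.3%, and 19.1%. The share in the TL-14d libraries was 2.43%, 25.3%, and 5.2%, so replicate 2 was above the highest TL-3d library in this measure and replicate 1 was just above the highest control library. The sum of both genes was 54.9, 29.3, and 74.3 FPKM in control and 122, 138, and 107 FPKM at 3 hours, where all 3 libraries lay above control. It was 89.5, 46.5, and 50.3 FPKM at 3 days and 24.1, 25.8, and 47.9 FPKM at 14 days.

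**Figure D2:**
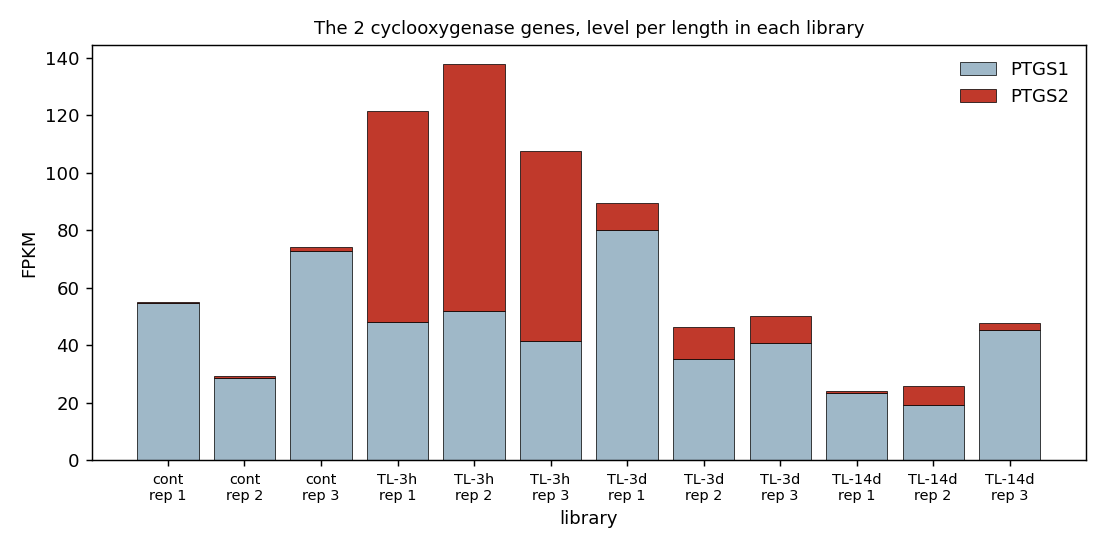
FPKM of PTGS1 and PTGS2 in each of the 12 libraries, stacked, so that bar height is their sum. PTGS2 is 60.4% to 62.2% of the sum in the 3 TL-3h libraries and at most 2.09% in the control libraries.

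PTGES, the inducible terminal synthase of prostaglandin E, had no difference that passed the test in any comparison. Its levels were 74.4, 66.5, and 43.4 CPM in control replicates 1, 2, and 3, and 50.7, 25.1, and 63.8 CPM at 3 hours. The TL-3d libraries held 31.8, 27.1, and 24.4 CPM, and the TL-14d libraries 75.1, 31.9, and 37.3 CPM. At 3 days all 3 libraries were below all control libraries, and at 3 hours and 14 days the groups overlapped. The log2 fold change was -0.40 at 3 hours (SE 0.389, q = 0.438), -1.15 at 3 days (SE 0.394, q = 0.0679), and -0.35 at 14 days (SE 0.389, q = 0.776). The value at 3 days was close to the threshold and passed it with DESeq2 (q = 0.023), with the 6 libraries alone (q = 0.0247), without TL-3h replicate 2 (q = 0.047), and without TL-14d replicate 1 (q = 0.0314), over a range of 0.023 to 0.178.

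PTGIS, which makes prostacyclin, had no row under that name, but a pair of rows on unplaced sequence was annotated as prostacyclin synthase and lay outside the choice by name. LOC103346149 (gene ID 103346149, 366437872 to 366459791) is named PTGIS in the gene table of a newer rabbit assembly, mOryCun1.1. It was at 0.831, 5.28, and 18.5 CPM in control, 9.84, 45.6, and 23.5 CPM at 3 hours, 0.45, 1.66, and 12.5 CPM at 3 days, and 2.59, 0.136, and 2.15 CPM at 14 days. The groups overlapped throughout, and the log2 fold change was 1.68 at 3 hours (SE 1.34, q = 0.342), -0.75 at 3 days (SE 1.32, q = 0.717), and -2.34 at 14 days (SE 1.40, q = 0.586). At 3 hours it was 3.06 without control replicate 3 and 0.98 without TL-3h replicate 2. LOC103352392 (gene ID 103352392, 147945486 to 147946158), a short row of 673 bases, stood in the same order of libraries in each group. It was at 0.736, 4.98, and 13.8 CPM in control and 7.3, 29.6, and 14.8 CPM at 3 hours. The TL-3d libraries held 0.4, 1.17, and 8.25 CPM, and the TL-14d libraries 2.05, 0.0, and 0.879 CPM. Its log2 fold change at 3 hours was 1.41 (SE 1.39, q = 0.443), with 2.55 and 0.73 when the same libraries were left out. It was -0.99 at 3 days (q = 0.64) and -2.74 at 14 days (q = 0.56).

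HPGD, the dehydrogenase that inactivates prostaglandins, fell at 3 days, with levels in all 3 libraries below those of control. Control replicates 1, 2, and 3 held 1.9, 2.03, and 24.0 CPM (80, 81, and 957 counts), and the TL-3h libraries 8.38, 6.18, and 3.7 CPM. The TL-3d libraries held 0.4, 0.0308, and 0.455 CPM (16, 1, and 16 counts), and the TL-14d libraries 2.39, 0.272, and 0.619 CPM (71, 10, and 19 counts). Control replicate 3 was far above the other 2, the TL-3h libraries lay between them and it, and at 14 days replicate 1 was inside the control range while the other 2 were below it. At 3 days the log2 fold change was -4.95 (SE 1.31, q = 0.0316), a 30.8-fold lower level with rank 46 from the lowest fitted value among all genes. Compared to 3 hours, the level at 3 days was 20.2-fold lower (log2 fold change -4.33, SE 1.28, q = 0.0235). The differences at 3 hours (-0.61, SE 1.09, q = 0.683) and 14 days (-3.09, SE 1.19, q = 0.43) did not pass the test.

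The size of the HPGD decrease rested on few counts and on control replicate 3. Without that library the log2 fold change at 3 days was -2.72 (q = 0.0855), the value at 14 days was -0.86 (q = 0.757), and the value at 3 hours turned to 1.58 (q = 0.217, over a range of 0.217 to 0.947). At 14 days the value was -4.39 (q = 0.114) without TL-14d replicate 1. The call at 3 days was also lost when control replicate 1 (q = 0.0529) or 2 (q = 0.0557), or TL-3d replicate 1 (q = 0.0944), 2 (q = 0.101), or 3 (q = 0.0578) was left out, with the 6 libraries alone (q = 0.0595), and on log2(FPKM + 1) values (q = 0.0911), over a range of 0.000115 to 0.101. Against 3 hours it was lost without TL-3h replicate 1 (q = 0.0546), TL-3d replicate 1 (q = 0.0616), or TL-3d replicate 2 (q = 0.0737), and on log2(FPKM + 1) values (q = 0.108), over a range that began at 0.000414. The direction at 3 days was lower in each of these alternatives. The ratio of PTGS2 to HPGD per length was 0.503, 0.745, and 0.19 in control and 34.2, 55.4, and 68.2 at 3 hours. It was 64.8, 1006, and 60.7 at 3 days, where the value of 1006 rests on a single HPGD count in replicate 2, and 0.68, 66.3, and 11.3 at 14 days.

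PTGER3, which encodes the EP3 receptor of prostaglandin E, rose 11.4-fold at 3 hours and was back inside or near the control range at 3 days. It was at 1.23, 3.2, and 3.81 CPM in control replicates 1, 2, and 3 and at 24.8, 38.3, and 31.4 CPM at 3 hours. The TL-3d libraries held 2.27, 3.6, and 4.64 CPM and the TL-14d libraries 0.908, 0.842, and 4.39 CPM. All TL-3h libraries were above every other library, and at 3 and 14 days the groups overlapped with control. The log2 fold change was 3.52 at 3 hours (SE 0.683, q = 0.00227), 0.35 at 3 days (SE 0.629, q = 0.722), and -0.43 at 14 days (SE 0.635, q = 0.844), the last of which was -1.65 without TL-14d replicate 3. From 3 hours to 3 days it fell by 3.17 on the log2 scale (SE 0.673, q = 0.00469). Both calls held under all 21 alternatives, with the highest q at 0.0108 for the rise and 0.0223 for the fall. The table lists 6 transcripts of PTGER3, and 1 of them, of 5753 bases, held 83.4% to 100% of the PTGER3 transcript counts in control and 96.8% to 97.7% at 3 hours. It was the single PTGER3 transcript with enough counts to be tested, with a log2 fold change of 3.56 at 3 hours (SE 0.698, q = 0.00413 over 26082 transcripts, of which 28.3% were past the threshold).

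PTGIR, the prostacyclin receptor gene, rose at 3 hours and stayed higher at 3 days. Control replicates 1, 2, and 3 were at 0.617, 1.38, and 2.28 CPM, the TL-3h libraries at 31.9, 42.7, and 15.9 CPM, the TL-3d libraries at 4.6, 4.5, and 6.23 CPM, and the TL-14d libraries at 1.34, 1.33, and 1.6 CPM. The TL-3h libraries were above all TL-3d libraries, these were above all control libraries, and the TL-14d libraries were inside the control range. The increase was 21.1-fold at 3 hours (log2 fold change 4.4, SE 0.507, q = 0.00014) and 3.58-fold at 3 days (log2 fold change 1.84, SE 0.461, q = 0.0266). Between these times the level fell by 2.56 on the log2 scale (SE 0.465, q = 0.00201), and at 14 days the mean was 1.42 ± 0.149 CPM against 1.43 ± 0.834 CPM in control (SD, n = 3 each, q = 1.0). The difference between 14 and 3 days, -1.84 (SE 0.463), had a q of 0.0691 and passed the test with DESeq2 (q = 0.00268) and without control replicate 3, over a range of 0.00268 to 0.169. At 3 hours the call held under all 21 alternatives (highest q 0.00293). The call at 3 days was lost without control replicate 1 (q = 0.0713) or 2 (q = 0.086), without TL-3d replicate 1 (q = 0.0665), 2 (q = 0.0682), or 3 (q = 0.0542), and on log2(FPKM + 1) values (q = 0.0531), over a range of 0.00103 to 0.086.

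PTGER4, which encodes the EP4 receptor of prostaglandin E, was the most abundant receptor gene of the set in control, and none of its differences passed the test. Its levels were 46.1, 49.1, and 30.8 CPM in control replicates 1, 2, and 3, 69.2, 39.0, and 49.4 CPM at 3 hours, 65.7, 45.5, and 50.3 CPM at 3 days, and 41.7, 48.9, and 49.8 CPM at 14 days. The groups overlapped in each comparison, and the 12 libraries together spanned 30.8 to 69.2 CPM. Its log2 fold changes of 0.32, 0.36, and 0.16 at 3 hours, at 3 days, and at 14 days (SE 0.242 each, q = 0.313, 0.31, and 0.851) had the smallest standard errors among the receptors, and the value at 3 hours turned to -0.19 with library size only.

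PTGFR, the receptor gene of prostaglandin F, varied widely within groups. Control replicates 1, 2, and 3 held 1.64, 4.15, and 20.2 CPM, the TL-3h libraries 12, 22.7, and 22.3 CPM, the TL-3d libraries 1.75, 1.6, and 12.2 CPM, and the TL-14d libraries 2.86, 1.63, and 12.7 CPM. In the control, TL-3d, and TL-14d groups the third replicate was far above the other 2, and the groups overlapped. The log2 fold changes were 1.13 at 3 hours (SE 1.09, q = 0.432), -0.74 at 3 days (SE 1.09, q = 0.657), and -0.60 at 14 days (SE 1.08, q = 0.871). Without control replicate 3, the value at 3 hours was 2.66 (q = 0.0905), and those at 3 and 14 days turned to 0.83 and 0.98. They were -2.37 without TL-3d replicate 3 and -1.95 without TL-14d replicate 3.

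PTGER2, which encodes the EP2 receptor, was barely detected, with 4 to 17 counts per library. Its level was 0.166, 0.175, and 0.15 CPM in control, 0.384, 0.207, and 0.146 CPM at 3 hours, 0.375, 0.339, and 0.484 CPM at 3 days, and 0.202, 0.217, and 0.13 CPM at 14 days. The TL-3d libraries were above all control libraries, and the other groups overlapped with control. PTGER2 passed the filter on low counts only through the TL-3d group, in which 3 libraries were over the needed 0.297 CPM, so it had to be higher there. Its fitted log2 fold change at 3 days, 1.27 (SE 0.446), is given with no test for that reason.

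Per length, the receptor genes together were at 14.2, 16.6, and 16.4 FPKM in control and 25.0, 24.0, and 21.8 FPKM at 3 hours. PTGER4 made up 93.3%, 86.0%, and 51.1% of that sum in control and 56.6%, 32.4%, and 47.3% at 3 hours. PTGIR took 1.07%, 2.07%, and 3.24% in control and 22.4%, 30.5%, and 13.0% at 3 hours, and PTGER3 1.01%, 2.27%, and 2.56% in control and 8.21%, 12.9%, and 12.2% at 3 hours. At 3 hours the sums and the shares of PTGIR and PTGER3 were above all control libraries. PTGER4 was at 89.7%, 85.5%, and 68.3% of the sum at 3 days and at 88.5%, 92.8%, and 71.8% at 14 days. The low share of PTGER4 in control replicate 3 went with a PTGFR share of 42.8% in that library.

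**Figure D3:**
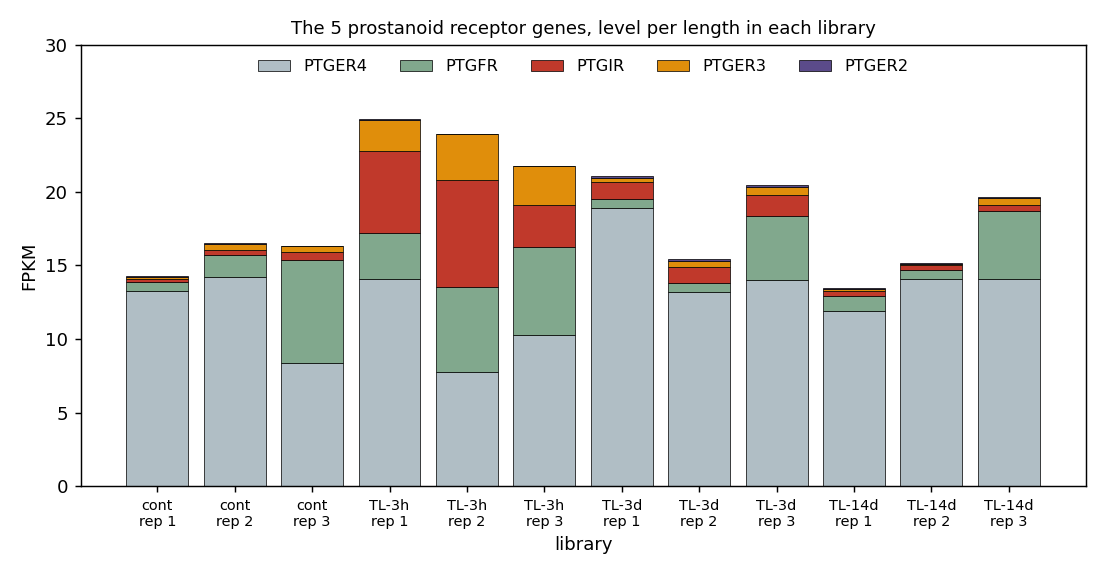
FPKM of the 5 receptor genes in each of the 12 libraries, stacked, so that bar height is their sum. The sum is 14.2 to 16.6 FPKM in control and 21.8 to 25.0 FPKM at 3 hours, where PTGIR and PTGER3 take larger parts.

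Without PTGER2, which is left out of these counts because it passed the filter only through the group in which it was high, 8 genes had enough counts. At 3 hours 3 of the 8 passed the test, all higher (PTGS2, PTGER3, and PTGIR), where 45.4% of all genes tested did and 23.2% were higher. At 3 days PTGS2 and PTGIR were higher and HPGD was lower, against 17.6% of all genes past the threshold, 10.6% higher and 7.0% lower. At 14 days none of the 8 passed by edgeR or by DESeq2, and 2 (PTGS2 and HPGD) had an unadjusted p under 0.05, as did 10.4% of all genes, while 0.0% of all genes passed by edgeR and 2.47% by DESeq2. From 3 hours to 3 days 4 genes fell (PTGS2, PTGER3, PTGIR, and HPGD), where 37.3% of all genes were past the threshold and 19.0% were lower. Between 14 and 3 days none passed by edgeR, against 2.24% of all genes, 2 had an unadjusted p under 0.05, as did 22.6% of all genes, and DESeq2 called 1, PTGIR, against 12.5% of all genes. With the 3 time points tested together, PTGS2 (q = 0.000347), PTGER3 (q = 0.00116), PTGIR (q = 0.000118), and HPGD (q = 0.0256) were past the threshold, where 52.4% of all genes were, and HPGD lost this call without TL-3d replicate 1 or 2 (q between 0.0154 and 0.0589 over its alternatives). By levels alone, the 8 genes gave 3 without overlap with control at 3 hours, 4 at 3 days, and 0 at 14 days, against 57.3%, 45.5%, and 11.1% of all genes tested. The TL-3d and TL-3h libraries did not overlap in 4 of them and the TL-14d and TL-3d libraries in 3, against 54.7% and 27.4% of all genes. Of the 14 transcripts of all 9 genes, 9 had enough counts to be tested, 1 for each gene. At 3 hours those of PTGS2, PTGER3, and PTGIR were higher (28.3% of all transcripts past the threshold), at 3 days that of PTGS2 (q = 0.0373, 5.13% of all transcripts), and from 3 hours to 3 days those of PTGS2, PTGER3, PTGIR, and HPGD were lower (21.4% of all transcripts). The median log2 fold change of the 8 genes was 0.73 at 3 hours, 0.16 at 3 days, and -0.39 at 14 days, beside 0.02, -0.0, and 0.02 for all genes tested.

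**Figure D4:**
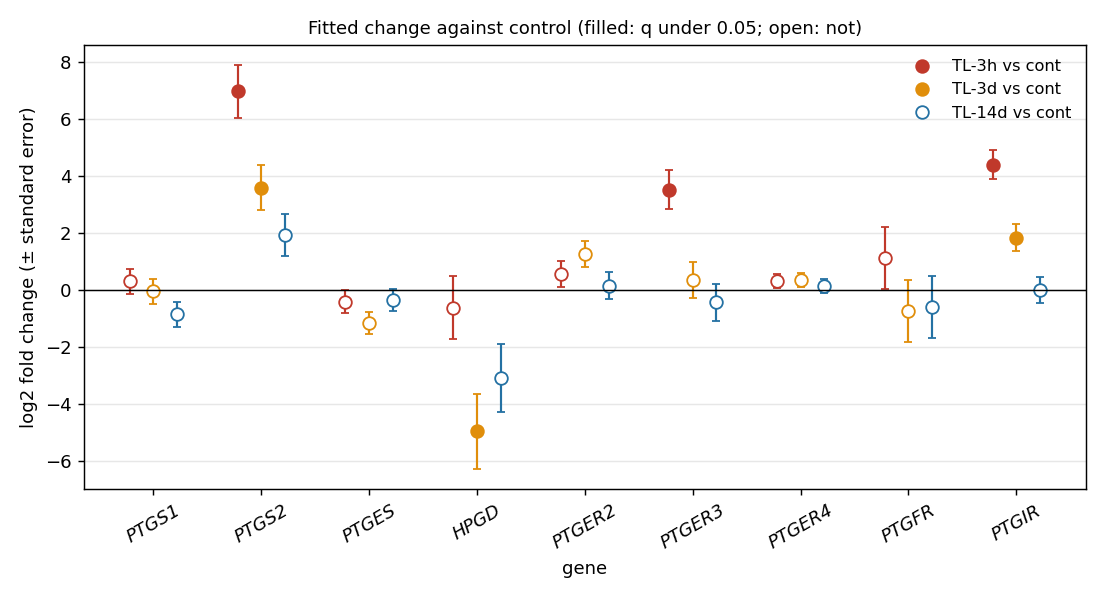
Log2 fold change against control (y axis) with its standard error for the TL-3h, TL-3d, and TL-14d groups in each of the 9 genes, with n = 3 libraries per group. Filled points have a q under 0.05: PTGS2, PTGER3, and PTGIR at 3 hours, and PTGS2, HPGD, and PTGIR at 3 days.

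The markers of other cells were tested in the same fit, in which 23.2% of all genes were higher and 22.2% lower at 3 hours, and 10.6% higher and 7.0% lower at 3 days. All 6 neutrophil markers were higher at 3 hours, and 1 of 6 at 3 days. Of the 5 monocyte and macrophage markers with a row, 2 were higher at 3 hours and 3 at 3 days, and of the 5 endothelial markers 2 were higher at 3 hours and 0 at 3 days. No marker of these 3 lists was at 0 in a whole group. Of the 4 epithelial markers, 1 was higher at 3 hours, 1 at 3 days, and 0 at 14 days. The part of these cells in the rise of PTGS2, PTGER3, and PTGIR was not tested. The mast cell sum was below control at 3 hours and at 3 days, and HPGD was below control at 3 days. Of the 3 mast cell markers tested, 2 were higher and 1 was lower at each of these times. Of the 3 smooth muscle and pericyte markers tested, 1 was lower at 3 hours and 0 at 3 days. The part of these cells in the lower levels was not tested. PTGFR was set beside the sum of 5 fibroblast markers (PDGFRA, COL1A2, DCN, LUM, and COL6A3), none of which passed the test against control. That sum was 6169, 16099.6, and 35012 CPM in control replicates 1, 2, and 3, 47436, 58566, and 47045 CPM at 3 hours, 772, 5387, and 26419 CPM at 3 days, and 12056, 4585, and 23142 CPM at 14 days. The library with the highest sum was also the highest in PTGFR in each group, but the order of the other 2 libraries differed between the sum and PTGFR at 3 hours and at 3 days. The library with the highest sum was the highest in LOC103346149 in the control, TL-3h, and TL-3d groups but not at 14 days. For HPGD, the sum of 5 glucocorticoid-induced genes (TSC22D3, FKBP5, PER1, ZBTB16, and KLF9) was 352, 263, and 1555 CPM in control, 773, 926, and 846 CPM at 3 hours, 161, 159, and 190 CPM at 3 days, and 523, 162, and 202 CPM at 14 days. Both were highest in control replicate 3, TL-3d replicate 3, and TL-14d replicate 1 of their groups, while at 3 hours HPGD was highest in replicate 1, which had the lowest sum. Of the 5 genes, 4 were lower at 3 days than at 3 hours, where 19.0% of all genes tested were. Of the same 5, 2 were lower at 3 days than in control, where 7.0% of all genes were. The part of these 5 genes in the HPGD level was not tested.

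**Figure D5:**
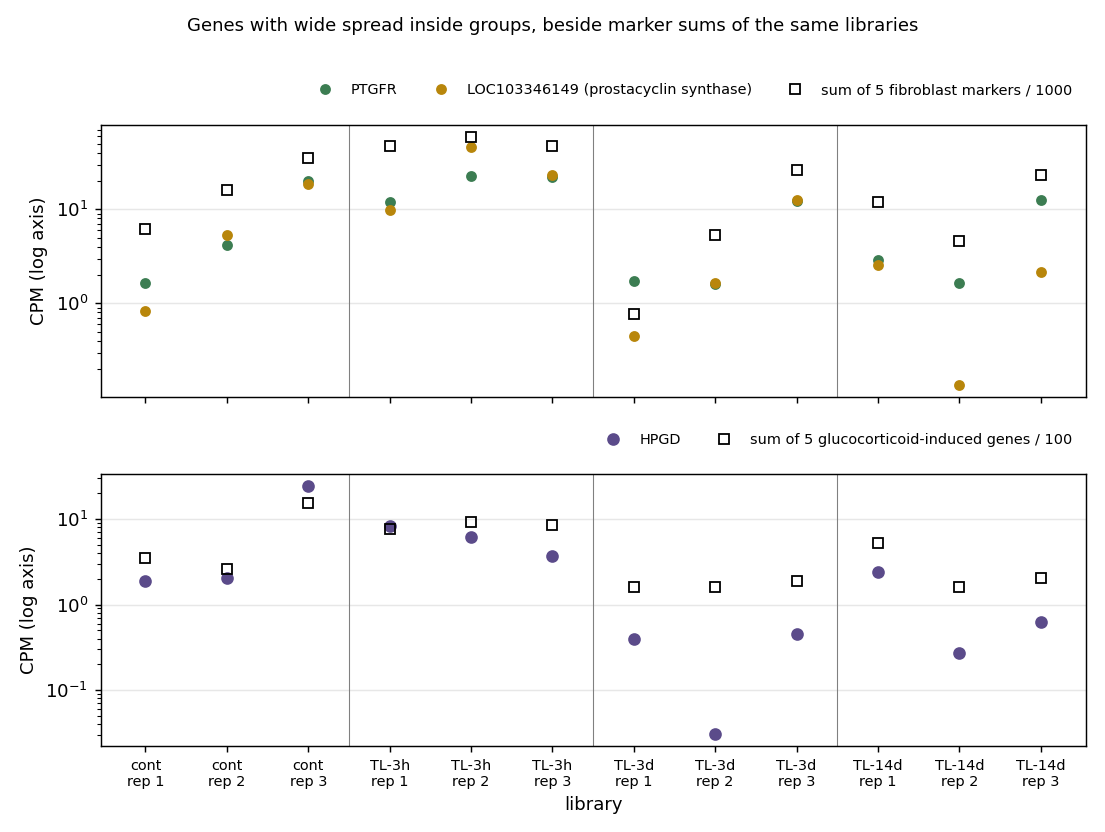
Levels in CPM (log axis) of PTGFR and LOC103346149 beside the fibroblast marker sum divided by 1000 (top), and of HPGD beside the glucocorticoid-induced sum divided by 100 (bottom), in each of the 12 libraries. PTGFR and the fibroblast sum are highest in replicate 3 of the control, TL-3d, and TL-14d groups.

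The genes whose pattern over the 12 libraries was most like that of PTGS2 were FOSL1, TNFRSF12A, and SOCS3, with root mean square differences of 0.508, 0.564, and 0.603 in centred log2 CPM. FOSL1, a subunit of the AP-1 transcription factor, had mean levels of 0.275, 106, 6.96, and 1.15 CPM in the cont, TL-3h, TL-3d, and TL-14d groups. SOCS3, an inhibitor of cytokine signalling, had 10.1, 521, 94.7, and 13.2 CPM, and TNFRSF12A, a receptor of the TNF family, had 4.74, 407, 57.8, and 39.9 CPM. The genes most like HPGD were WSCD2, KLF15, and LOC103346277, with differences of 0.513, 0.528, and 0.551. KLF15, a transcription factor gene known to respond to glucocorticoids, had mean levels of 10.9, 5.34, 0.395, and 2.18 CPM in the same order of groups, WSCD2 had 5.56, 3.4, 0.34, and 0.919 CPM, and LOC103346277, annotated as hypoxia-inducible factor 3-alpha, had 4.68, 1.56, 0.141, and 0.275 CPM. All 6 are descriptions of likeness over 14834 genes and were not tested.

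Of 20 other names of the prostaglandin pathway, 15 had a row and 13 had enough counts to be tested. PTGDS, CBR3, AKR1C3, PTGER1, and TBXA2R had no row, and HPGDS and CBR1 had too few counts. PTGDR passed the filter only through the operated groups and is left out of the counts. At 3 hours 6 of the other 12 were higher and 1 was lower, against 23.2% and 22.2% of all genes, and with library size only 2 were higher and 2 were lower. At 3 days 4 were higher and 1 was lower, against 10.6% and 7.0% of all genes, and without control replicate 1 or 2 or TL-3d replicate 1 or 2 only AKR1B1 passed. At 14 days none passed by edgeR with all libraries, although AKR1B1 had an unadjusted p under 0.05, as did 10.4% of all genes, and passed with DESeq2 and without TL-14d replicate 1. Between 3 hours and 3 days 1 was higher and 2 were lower, against 37.3% of all genes past the threshold, and with library size only 3 were higher and 1 was lower. These shares of all genes belong to the main fit. With library size only, the median over all genes was -0.47 at 3 hours and 0.43 from 3 hours to 3 days. The shares of all genes for that setting, or with a library left out, are not given here. The median log2 fold change of the 12 was 0.47 at 3 hours, 0.5 at 3 days, and 0.1 at 14 days. PTGR1, PTGR2, SLCO2A1, PTGDR2, and PTGFRN passed the test in no comparison with control. PTGR2, a prostaglandin reductase, was at 46.8, 51.8, and 51.3 CPM in control and at 41.9, 36.1, and 34.1 CPM at 3 hours, all below control. Its log2 fold change of -0.42 (q = 0.225) passed the test with library size only (-0.92, q = 0.0122), with the 6 libraries alone (q = 0.0405), and on log2(FPKM + 1) (q = 0.0143) and log2(FPKM + 0.1) (q = 0.0132) values, with a highest q of 0.363.

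Upstream of the cyclooxygenases, PLA2G4A rose 5.5-fold at 3 hours. It was at 7.93, 10.9, and 22.2 CPM in control replicates 1, 2, and 3, 70.2, 72.8, and 82.2 CPM at 3 hours, 25.1, 47.7, and 45.4 CPM at 3 days, and 10.5, 32.4, and 26.5 CPM at 14 days. The libraries at 3 hours and 3 days were all above control. The log2 fold change was 2.46 at 3 hours (SE 0.478, q = 0.00227) and 1.53 at 3 days (SE 0.463, q = 0.047), and the call at 3 days was lost when any of 9 libraries was left out, all but TL-14d replicates 1 and 2 and control replicate 3 (highest q 0.14), with no filter on low counts (q = 0.0535), and with the 6 libraries alone (q = 0.0615).

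Among the synthases and reductases, TBXAS1, thromboxane synthase, was at 0.997, 2.05, and 7.05 CPM in control, 29.1, 37.5, and 26.3 CPM at 3 hours, and 21.8, 28.3, and 29.4 CPM at 3 days. Its log2 fold change was 3.20 at 3 hours (SE 0.873, q = 0.0131) and 2.98 at 3 days (SE 0.865, q = 0.0419). The call at 3 hours was lost without control replicate 2 (q = 0.0536), and that at 3 days without any of control replicates 1 and 2 and the 6 libraries at 3 hours and 3 days (highest q 0.129). Without control replicate 3 the values were 4.29 and 4.11. The TL-14d libraries held 0.37, 3.53, and 5.89 CPM of TBXAS1, and the log2 fold change against control was -0.04 (SE 0.817, q = 0.989). AKR1B1, an aldo-keto reductase that can make prostaglandin F, was the pathway gene whose call at 3 days held under all 21 alternatives. Its libraries held 10.8, 17.9, and 20.3 CPM in control, 29.7, 42.4, and 29.3 CPM at 3 hours, 69.3, 63.1, and 75.8 CPM at 3 days, and 24.7, 34.7, and 39.5 CPM at 14 days, each operated group above control. The log2 fold change was 1.05 at 3 hours (SE 0.259, q = 0.00798, and 0.0767 with library size only, the highest over a range that began at 0.00119), 2.09 at 3 days (SE 0.266, q = 0.00695), and 1.01 at 14 days (SE 0.258, q = 0.346), and from 3 hours to 3 days it rose by 1.04 (SE 0.258, q = 0.0105).

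The constitutive synthases of prostaglandin E and ZADH2, a prostaglandin reductase, had small differences that depended on the scaling at 3 hours. PTGES3 had a log2 fold change of 0.79 (q = 0.00132), which was 0.29 with library size only (q = 0.132, over a range of 1.76e-06 to 0.132). All PTGES3 count values were fractions, and 2 near-copies of it are annotated, so its reads are uncertain. PTGES2 was at 0.48 (q = 0.0449) and ZADH2 at 0.46 (q = 0.00695), and with library size only they turned to -0.03 and -0.05. PTGES2 lost its call when any library other than TL-3h replicate 1 or TL-14d replicate 1 was left out (highest q 0.235 among these), and ZADH2 lost it without TL-3h replicate 2 (q = 0.0501, over a range of 0.000738 to 0.895). Both PTGES2 (-0.54, q = 0.032) and PTGES3 (-0.92, q = 0.000767) were lower at 3 days than at 3 hours, of which PTGES2 lost its call with library size only (-0.07, q = 0.782) and under 10 other alternatives, over a range that began at 0.0126. At 3 days the log2 fold change of ZADH2 was 0.36 (q = 0.0492), a call that was lost with library size only (q = 0.0828) and when any library other than TL-14d replicate 1 or 2 was left out, over a range of 0.00841 to 0.137.

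ABCC4, a transporter that exports prostaglandins from cells, fell at 3 hours and at 3 days. It was at 158, 164, and 108 CPM in control replicates 1, 2, and 3, 78.5, 24.8, and 54.2 CPM at 3 hours, 43.3, 45.9, and 51.0 CPM at 3 days, and 159, 112, and 95.6 CPM at 14 days. All libraries at 3 hours and 3 days were below control. The log2 fold change was -1.45 at 3 hours (SE 0.364, q = 0.00875) and -1.62 at 3 days (SE 0.366, q = 0.0199). The call at 3 days was lost without control replicate 1 (q = 0.0657) or 2 (q = 0.0659) or without TL-3d replicate 1 or 2 (q = 0.0724 each), over a range of 0.000271 to 0.0724. PTGDR, a receptor gene of prostaglandin D that neighbours PTGER2, had 5, 1, and 3 counts in control and passed the filter on low counts only through the operated groups. It was at 0.423, 1.83, and 1.21 CPM at 3 hours, 2.8, 1.91, and 0.512 CPM at 3 days, and 0.168, 1.82, and 0.456 CPM at 14 days, against 0.119, 0.025, and 0.0752 CPM in control. Its fitted log2 fold changes of 3.91 at 3 hours (SE 1.06) and 4.5 at 3 days (SE 1.07) are given with no test, since it had to be higher in these groups.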

How the data were processed

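Conjunctival RNA of 12 libraries was analysed (TruSeq Stranded mRNA kit, whether counting used strand is not given in the sources used here). The submitters' processing notes name STAR 2.6.0c and the build OryCun2.0, and the methods of the paper that reused the libraries name GeneData Profiler Genome for the values per gene and transcript. The authors deposited estimated counts, of which 23.4% per gene were fractions, and FPKM values, divided by transcript length and depth. Samples were grouped by their labels.

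Here the estimated counts were rounded. The plan had named counts, and its test was kept. Genes were kept by filterByExpr (minimum count 10, minimum total count 15), which left 14835 of 20566 genes and 26082 of 38710 transcripts. All 12 libraries entered 1 fit without covariates (edgeR 4.0.16, glmQLFit and glmQLFTest, R 4.3.3), tested on simulated data. The SE was computed as the size of the log2 fold change over the square root of F. FPKM served the order of levels and shares. Likeness of patterns used log2 CPM with a pseudocount of 0.5. The 21 alternatives were DESeq2 1.42.0 and its size factors, library size only, no filter, limma 3.58.1 on log2 CPM (prior count 2) and on log2(FPKM + 1) and log2(FPKM + 0.1), only the libraries compared, a replicate block, and each of 12 libraries left out. Where a group then had 2 libraries, the pooled spread was used.

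All 10 genes were named in full, with pathway genes past the threshold in any comparison with control, the 3 nearest genes of PTGS2 and of HPGD, and markers by list. The genes, lists, and tests were chosen with earlier results of these data known. The lowest median of squared count differences over counting variance for a pair of libraries in a group was 5.13, where copies give about 1.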

Additional observations from a re-analysis of the deposited data

Results flagged for a closer look

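The effects at 3 hours and 3 days, both against control, differed by the edgeR quasi-likelihood test of TL-3d against TL-3h for 4 of 8 genes. PTGER2 is again left out. Of all genes tested, 37.3% differed and 19.0% were lower at 3 days. The difference was -3.38 for PTGS2, -3.17 for PTGER3, and -2.56 for PTGIR on the log2 scale, each with a higher level at 3 hours. For HPGD it was -4.33, with 1 to 16 counts per library at 3 days. Of the other pathway genes, the same test gave -0.54 for PTGES2 (-0.07 with library size only), -0.92 for PTGES3, and 1.04 for AKR1B1.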

How the results depend on the processing

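PTGS2, PTGER3, and PTGIR at 3 hours kept direction and call under all 21 alternatives. Without PTGER2, the counts at 14 days against control stayed at 0 of 8. The number of these 8 genes past the threshold was 1 (PTGS2) at 3 days on log2(FPKM + 1), and 1 (PTGIR) between 14 and 3 days with DESeq2. Of the other 12 pathway genes, 4 passed at 3 hours with library size only and 3 at 3 days with no filter on low counts. DESeq2 called 1 at 14 days, against 2.47% of all genes, and 3 between 14 and 3 days, against 12.5% of all genes. Between 14 and 3 days 1 passed with the replicate block. The shares of all genes for the settings other than DESeq2 are not given here. Of the transcripts, 2 passed at 3 days with library size only. By mean instead of median FPKM, 5, 7, 5, and 7 of the 9 genes kept their rank in the cont, TL-3h, TL-3d, and TL-14d groups, and 7 did without TL-14d replicate 1. With 1 library left out, the 8 genes without PTGER2 gave 3 to 3 calls at 3 hours, 0 to 4 at 3 days, 0 to 0 at 14 days, 3 to 4 from 3 hours to 3 days, 0 to 1 from 3 to 14 days, and 3 to 4 over all times, the pathway genes 5 to 7, 1 to 5, 0 to 1, 2 to 4, and 0 to 1, and the transcripts 3 to 4, 0 to 3, 0 to 0, 2 to 4, and 0 to 0. No call at 3 days remained among these 8 genes without control replicate 1 or 2 or TL-3d replicate 1 or 2, and 1 without TL-3d replicate 3. The share of all genes past the threshold in the fits with a library left out is not given here. Whether these losses were particular to these genes was therefore not tested. Signs turned for values that had not passed, and for PTGES2 and ZADH2 at 3 hours, which had. With library size only these were PTGS1 (-0.16), PTGER4 (-0.19), PTGES2 (-0.03), and ZADH2 (-0.05) at 3 hours and PTGIR (0.01) at 14 days. On log2(FPKM + 1) and log2(FPKM + 0.1) they were PTGS1 (-0.05 and -0.05), PTGER4 (-0.15 and -0.16), PTGES2 (-0.0 and -0.0), and ZADH2 (-0.02 and -0.02) at 3 hours, PTGS1 at 3 days (0.0 and 0.0), and PTGIR at 14 days (0.02 and 0.12). With limma on log2 CPM they were HPGD at 3 hours (0.34) and PTGIR at 14 days (0.17, and 0.01 with the 6 libraries alone). With 1 library left out, the log2 fold change ranged from -0.47 to 0.31 for PTGS1, -0.0 to 0.65 for PTGER3, -2.37 to 0.83 for PTGFR, -2.96 to 0.67 for LOC103346149, and -3.05 to 0.19 for LOC103352392 at 3 days, from -1.1 to 1.58 for HPGD at 3 hours, and from -0.04 to 0.28 for PTGER4, -1.95 to 0.98 for PTGFR, and -0.36 to 0.51 for PTGIR at 14 days. Apart from the scaling by construction, the cause was not tested.

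Replicate numbers did not pair the libraries: 8 of 18 pairs with the same number had a correlation of deviations over 0.1 (-0.147 to 0.481), and 1 library correlated best with its own number in every group. With the replicate block, PTGFR was called at 3 hours (1.96, q = 0.0274), from 3 hours to 3 days (q = 0.0111), and with the 3 time points together (q = 0.0154), and PTGS1 at 3 days (0.02), HPGD at 3 hours (0.1), and PTGIR at 14 days (0.06) turned sign. The 1 to 19 counts of HPGD in 5 libraries and the 4 to 17 of PTGER2 limit the precision of their values.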

Other observations

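The table also holds 10 rows annotated as prostaglandin-E(2) 9-reductase or like it, which were chosen after their values were seen and of which 5 had enough counts to be tested. They form a multigene family whose members can share reads. PGER5 (gene ID 100343437) was the most abundant, at 281, 259, and 202 CPM in control replicates 1, 2, and 3 and 64.5, 75.2, and 81.9 CPM at 3 days, all below control (log2 fold change -1.75, standard error 0.404, q = 0.0212, and 0.000317 to 0.0779 over its alternatives), where 7.0% of all genes were lower. At 3 hours PGER5 was at 146, 106, and 148 CPM, all below control (-0.89, q = 0.092, and 0.00268 to 0.205 over its alternatives). That difference passed with DESeq2 and with library size only, among others. At 14 days it was at 335, 109.8, and 107 CPM, with replicate 1 above control (-0.43, q = 0.727). The difference at 14 days passed without TL-14d replicate 1 (q = 0.0171), over a range of 0.0171 to 0.994. PGER4 (gene ID 100352458), a different gene from PTGER4, was at 44.4, 58.6, and 32.0 CPM in control and 31.1, 15.5, and 19.8 CPM at 3 hours (log2 fold change -1.02, standard error 0.304, q = 0.0194, and 0.00232 to 0.0809 over its alternatives), where 22.2% of all genes were lower. It was at 28.8, 30.5, and 34.1 CPM at 3 days (-0.53, q = 0.228) and at 53.5, 30.9, and 37.0 CPM at 14 days (-0.15, q = 0.88), and both groups overlapped with control. PGER2 (gene ID 100349110), a different gene from PTGER2, had 1, 0, and 0 counts in control, 0, 1, and 0 counts at 3 hours, 26, 19, and 3 counts at 3 days, and 0, 21, and 25 counts at 14 days. The other tested rows, PGER6 and PGER8, were fitted higher at 3 days, at 0.85 (q = 0.273) and 0.28 (q = 0.75), and passed no comparison with control. From 3 hours to 3 days PGER6 had a log2 fold change of 1.41 (q = 0.0678), which passed with DESeq2, over a range of 0.0171 to 0.215.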
